A study of Homo sapiens with 6 samples.

Results

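Collagen genes were followed through the knockdown of the long noncoding RNA DLEU1 in oral squamous cell carcinoma (OSCC) cells. The collagen family was picked with earlier results of these data known, and its members were taken by gene name, as every non-control probe named COL, a number, A and a number, which gave 43 genes with 65 probes of the 50599 probes on an array. They were grouped as fibrillar collagens (11 genes), collagens of the basement membrane zone (9 genes), transmembrane collagens (4 genes), and other collagens (19 genes). HSC-3, KON, and Ca9-22, which are OSCC cell lines in long-term culture, received either a control siRNA (siCtrl) or siDLEU1-2, an siRNA directed at DLEU1. RNA was taken 72 h later, and 100 ng was labeled with a single dye and hybridized to 1 microarray for each line with each siRNA, giving 6 arrays. The lines carried no other modification that the labels name, a single siRNA against DLEU1 was used on the arrays, and the 3 lines are the only replicates.

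Collagens are trimeric matrix proteins whose chains wind into a triple helix, in which glycine recurs at a fixed spacing along each chain. Fibrillar collagens form the fibers of connective tissue and are made mainly by fibroblasts. Epithelial cells such as keratinocytes make type IV, VII, and XVII collagens, which build the basement membrane, anchor it to the tissue underneath, and attach the basal cell to it. The repeat can be read in some probes on these arrays, and it is shown here because it is the family's hallmark. The second COL16A1 probe, with GG in capitals where it recurs 9 bases apart, as the first letters of glycine codons do, reads:

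COL16A1: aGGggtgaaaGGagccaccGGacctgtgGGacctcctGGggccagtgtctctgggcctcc

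This probe of 60 bases lies at chr1:32148536-32148595 (hg19, minus strand) and holds 5 such GG pairs. Among the 65 collagen probes, 2 (3.08%) held at least 5 GG pairs in 1 register, against 18 of all 50599 probes (0.0356%). The other probe belongs to COL9A1.

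Values are log2 levels, that is, the log2 of the background-subtracted brightness minus the 75th percentile of the same array, so that a level of 0 is the brightness that 75 percent of probes lie under. Levels of different probes cannot be set against each other, because probes differ in brightness for equal amounts of RNA. The 75th percentile itself ranged from 200.5 to 256.8 brightness units, and the scanner software called 43.0% to 45.7% of all probes of an array well above background. All 6 arrays shared 1 slide. The DLEU1 probe was at 1.39, 2.16, and 1.56 after siCtrl in HSC-3, KON, and Ca9-22, and at -2.71, -1.48, and -1.88 after siDLEU1-2. Its level was lower after siDLEU1-2 in every line, by 17.1-, 12.4-, and 10.8-fold, and the log2 fold changes averaged -3.72 ± 0.34 (SD, n = 3 lines; limma adjusted p = 0.0227). With normexp background correction, the mean was -2.69 (adjusted p = 0.0103). DLEU1 was not called with no filter (adjusted p = 0.141), with no block for the line (0.183), without HSC-3 (0.0808), or without KON (0.103).

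The siRNA that lowered DLEU1 is given here because its guide strand can also pair with other transcripts through its seed, bases 2 to 8, which are in capitals:

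siDLEU1-2 antisense strand: uUAAGUGCgauaaccccugua

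The DNA letters complementary to this seed, GCACTTA, were found in 138 of the 50599 probes (0.273%) and in 1 of the 65 collagen probes, that of COL4A4. The COL4A4 probe was well above background on 1 array. Transcripts outside the probes were not searched.

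Collagen genes ranged from detected everywhere to detected nowhere. Of the 43 genes, 16 had a probe well above background on all 6 arrays, 15 on some arrays, and 12 (27.9%) on none, where 41.9% of all 36337 gene names on the array had no probe detected. The 12 genes included COL1A2 and COL3A1, the partner chain of type I collagen and the chain of type III collagen, together with COL11A1, COL15A1, COL19A1, COL21A1, COL22A1, COL25A1, COL4A3, COL6A3, COL6A5, and COL6A6. Each array detected between 27 and 33 collagen probes. Marker genes of squamous epithelium (KRT5, KRT14, KRT6A, KRT17, SFN, DSP, PKP1, and CDH1) were detected by at least 1 probe on every array, 8 of 8 genes. Of 8 fibroblast markers (PDGFRA, PDGFRB, FAP, THY1, DCN, LUM, FBN1, and TWIST1), none was detected on all 6 arrays. PDGFRA, PDGFRB, THY1, LUM, and FBN1, 5 of the 8, were detected on none. The second TWIST1 probe was detected on 5 arrays, FAP on 4, and DCN on 1. In HSC-3, FAP was at 1.59 after siCtrl and 0.89 after siDLEU1-2, and TWIST1 was at -0.93 and -0.69. A list's summed linear level can be compared between arrays and not between lists. The fibroblast sum, with 1 to 3 of its 10 probes well above background on an array, ranged from 0.431 to 3.71 after siCtrl and from 0.35 to 2.79 after siDLEU1-2. By line, it went from 3.71 to 2.79 (HSC-3), from 0.431 to 0.35 (KON), and from 0.662 to 1.64 (Ca9-22), lower in the first pair of lines and higher in Ca9-22. The squamous sum ranged from 472 to 1600 after siCtrl and from 372 to 852 after siDLEU1-2. It was lower after siDLEU1-2 in each line, with KRT6A, PKP1, and SFN called lower and CDH1, which encodes E-cadherin, called higher by limma. The part of the marker changes in the collagen results was not tested, and in RNA from whole cultures, fewer cells of a type and less RNA per cell cannot be told apart.

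**Figure D1:**
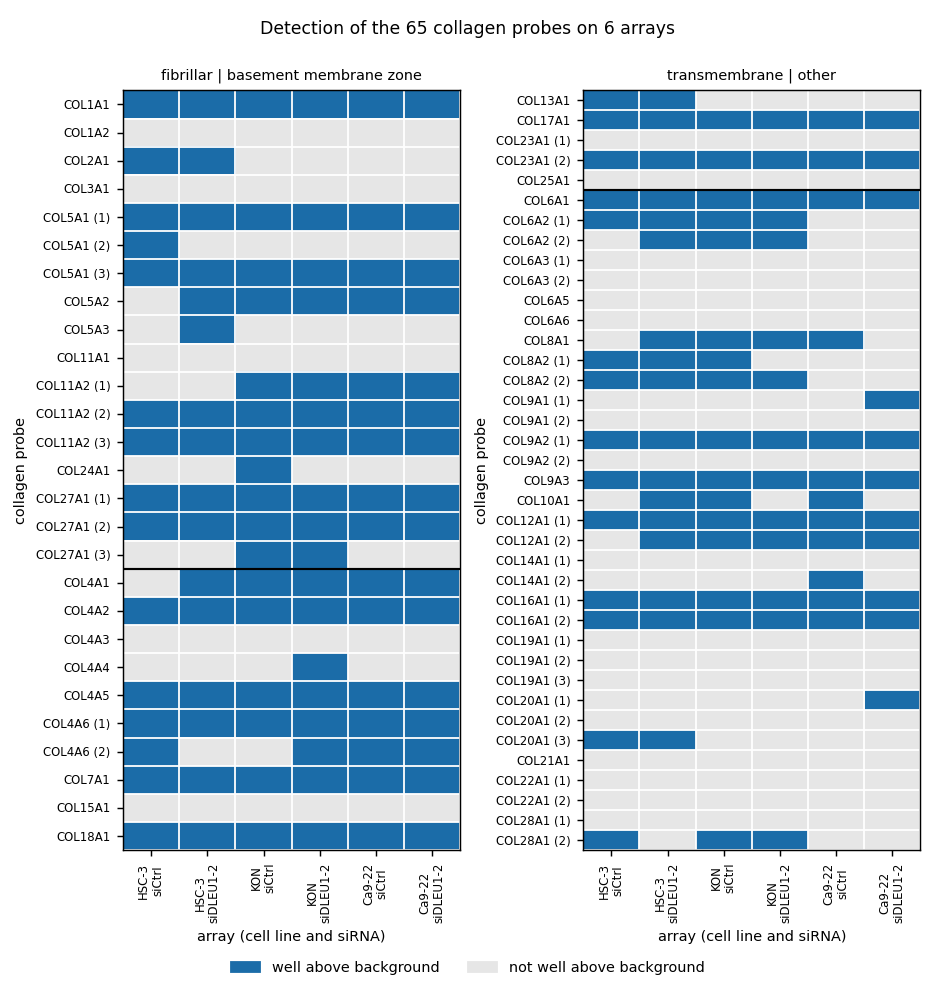
Each row is 1 of the 65 collagen probes, grouped by type, and each column is 1 of the 6 arrays. Blue marks a probe well above background on that array and grey 1 that was not, with the probes of a gene numbered in the order of their identifiers. COL1A1 was blue on all 6 arrays, whereas COL1A2 and COL3A1 were grey on all 6.

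To ask which collagen genes followed the knockdown, limma was fitted to the 19956 probes detected above background in every line, on at least 1 of its arrays, with the cell line as a block. Of the 65 collagen probes, 26 probes of 20 genes passed this filter. Of these, 2 were called higher after siDLEU1-2 (COL1A1 and COL5A2, both fibrillar, of which COL5A2 passed the filter in HSC-3 through its siDLEU1-2 array alone) and 2 were called lower (COL4A5 and COL7A1, both of the basement membrane zone). Over all probes tested, 3.98% were called higher and 4.52% lower. At an unadjusted p under 0.05, 8 of the 26 collagen probes passed, and 29.5% of all probes did. The median of the mean log2 fold change was 0.25 over the 26 collagen probes and 0.01 over all probes tested. The collagen median was 0.05 without HSC-3, 0.24 without KON, and 0.34 without Ca9-22. The 4 calls rest on all 3 lines together, and none of these 4 probes was called when any 1 line was left out, which leaves 2 pairs of arrays.

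COL1A1 encodes the main chain of type I collagen, the chief collagen of bone, skin, and stroma. Its probe (chr17:48261509-48261568, hg19, minus strand) was at -0.65, -0.30, and -0.34 after siCtrl in HSC-3, KON, and Ca9-22, and at 1.43, 1.02, and 0.62 after siDLEU1-2. The 3 siCtrl arrays were close together and all lay below the 3 siDLEU1-2 arrays. COL1A1 rose in every line, by 4.23-fold (HSC-3), 2.5-fold (KON), and 1.95-fold (Ca9-22). The mean of the log2 fold changes was 1.45 ± 0.57 (SD, n = 3 lines), with an SE of the fit of 0.25 and a limma adjusted p of 0.0423. Its partner COL1A2 had no level well above background, at -5.49, -5.91, and -5.47 after siCtrl and -5.66, -5.46, and -5.33 after siDLEU1-2. Type I collagen is usually a trimer of both gene products, and its second chain was thus not detected on these arrays.

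Type V collagen, which joins type I collagen in thin fibrils, is assembled from COL5A1 and COL5A2. The COL5A2 probe (chr2:189897429-189897488, minus strand) was at -4.14, -3.0, and -1.39 after siCtrl and at -2.39, -1.22, and -0.21 after siDLEU1-2. Each line rose, while the lines themselves differed so much that the siRNA groups overlapped. In HSC-3, the siCtrl value was not well above background, which gives a rise of at least 2.28-fold there. The other lines rose 3.44-fold (KON) and 2.26-fold (Ca9-22), and the log2 fold changes averaged 1.57 ± 0.34 (SD, n = 3 lines; SE 0.18; limma adjusted p = 0.0257). With the dim value raised to the lowest detected signal, the mean was 1.38 and the call remained (limma adjusted p = 0.0257). With normexp, the mean was 0.71 (adjusted p = 0.0312), and COL5A2 was no longer past 2-fold in all 3 lines. COL5A2 could not be called under a filter of detection on all 6 arrays, which it does not pass.

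COL5A1 has 3 probes, of which 2 were tested and gave unequal values. The first probe (chr9:137734063-137734122, plus strand) was at -0.38, 0.24, and -0.95 after siCtrl and at 0.95, 0.71, and 0.51 after siDLEU1-2, and the log2 fold changes averaged 1.09 ± 0.53 (SD, n = 3 lines; limma adjusted p = 0.0623). All 3 siDLEU1-2 arrays lay above the siCtrl arrays, and the probe did not pass the test. It was called with normexp background correction (adjusted p = 0.0429) and with probes detected on all arrays (adjusted p = 0.045), and not under the other alternatives (adjusted p from 0.0545 to 0.613). The third probe, about 2 kb further along the chromosome (chr9:137736327-137736386), was at 3.69, 3.55, and 2.99 after siCtrl and at 4.49, 3.26, and 3.27 after siDLEU1-2, so that KON moved the other way (mean 0.27, limma adjusted p = 0.52). The second probe was well above background on 1 array, that of HSC-3 after siCtrl.

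Among the other fibrillar collagens tested, neither probe of COL27A1 passed the test (means -0.47 and -0.25, lower in each line), and neither did those of COL11A2 (means 0.30 and -0.35). COL2A1, the collagen of cartilage, was well above background in HSC-3 alone, at -2.48 and -2.99. COL5A3 and COL24A1 were each detected on a single array, HSC-3 after siDLEU1-2 and KON after siCtrl, and were not tested.

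**Figure D2:**
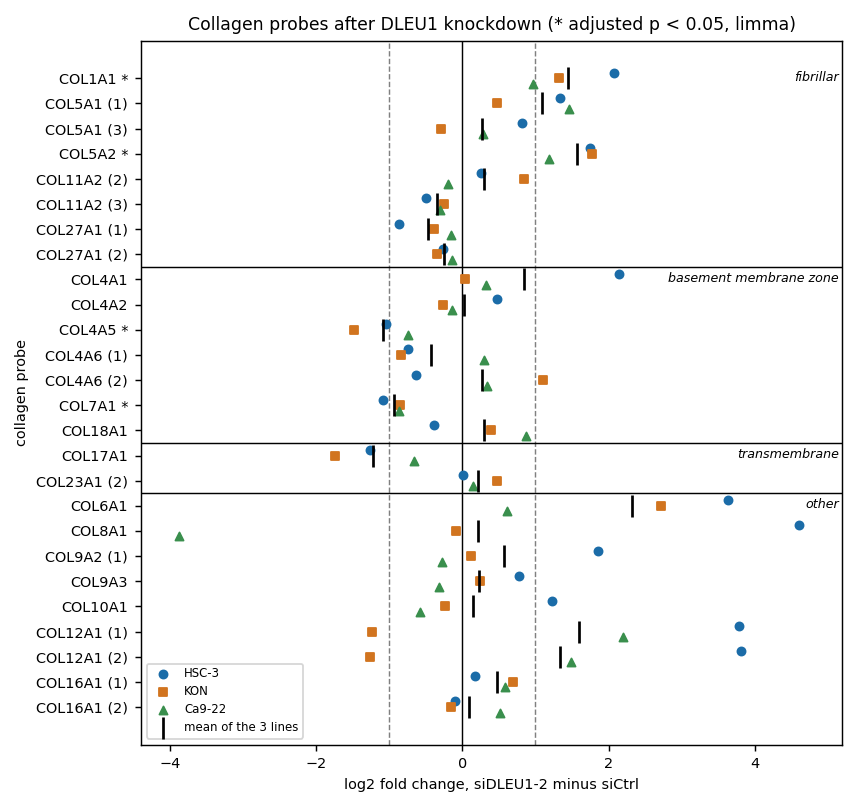
Log2 fold change (siDLEU1-2 minus siCtrl, horizontal axis) of the 26 collagen probes tested, with 1 symbol per cell line and a bar at the mean of the 3 lines. Dashed lines mark 2-fold, and asterisks mark probes called by limma. COL1A1 and COL5A2 lie right of 0 and COL4A5 and COL7A1 left of 0 in all 3 lines, while COL12A1 and COL8A1 spread to both sides.

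In the basement membrane zone, the 2 calls of the 7 probes tested were both lower, where 4.52% of all probes were called lower, and the difference between collagen types was not tested. No transmembrane (2 tested) or other collagen probe (9 tested) was called. COL7A1 encodes type VII collagen, the chain of the anchoring fibrils that hold the epidermis and oral mucosa to the connective tissue. Its probe (chr3:48602401-48602588, minus strand, a span longer than the probe) was at 3.36, 3.89, and 3.1 after siCtrl and at 2.26, 3.04, and 2.24 after siDLEU1-2. The lowest siCtrl array, at 3.1, lay just above the highest siDLEU1-2 array, at 3.04. COL7A1 fell 2.13-fold (HSC-3), 1.80-fold (KON), and 1.81-fold (Ca9-22), with the smallest SD among the 4 called probes. Its log2 fold changes averaged -0.93 ± 0.14 (SD, n = 3 lines; SE 0.14; limma adjusted p = 0.0334). Only in HSC-3 did it pass 2-fold.

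COL4A5 encodes a type IV chain that, in the basement membrane under squamous epithelium, assembles with the product of COL4A6. Its probe (chrX:107940580-107940639, plus strand) was at 4.07, 0.41, and 3.34 after siCtrl and at 3.02, -1.07, and 2.60 after siDLEU1-2. KON was far below the other lines with either siRNA, and each line was lower after siDLEU1-2. COL4A5 fell 2.07-fold (HSC-3), 2.78-fold (KON), and 1.67-fold (Ca9-22) (mean log2 fold change -1.09 ± 0.37, SD, n = 3 lines; SE 0.19; limma adjusted p = 0.0436). COL4A6 lies head to head with COL4A5. Its first probe (chrX:107399050-107399109, minus strand) was at 4.05, 1.23, and 2.27 after siCtrl and at 3.31, 0.38, and 2.56 after siDLEU1-2, lower in HSC-3 and KON and higher in Ca9-22 (mean -0.43 ± 0.63, limma adjusted p = 0.355). The second COL4A6 probe (chrX:107512310-107512369) was at -3.24, -4.23, and -2.70 after siCtrl and at -3.87, -3.13, and -2.36 after siDLEU1-2, with 1 array of HSC-3 and 1 of KON not well above background (mean 0.27, limma adjusted p = 0.655).

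The start regions of COL4A5 and COL7A1, the genes called lower, are shown because they are the regions through which the genes are read, and COL4A5 shares its region with COL4A6. RefSeq places the COL4A5 start at position 108439838 of chromosome X (GRCh38.p14) and the nearest COL4A6 start, on the other strand, at 108439458, with 379 bases between them. The 250 bases before each start are printed in the direction of the gene. Capitals mark the letters of 3 motifs searched on both strands, namely GGGCGG (a GC box), CCAAT, and TATAA.

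COL4A5, chrX:108439588-108439837, plus strand: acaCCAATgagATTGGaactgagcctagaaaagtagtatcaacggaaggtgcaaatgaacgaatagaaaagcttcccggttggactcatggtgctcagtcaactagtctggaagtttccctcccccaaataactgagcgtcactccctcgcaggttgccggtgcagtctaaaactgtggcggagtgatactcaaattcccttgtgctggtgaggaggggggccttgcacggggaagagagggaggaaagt

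COL7A1, chr3:48595330-48595579, minus strand: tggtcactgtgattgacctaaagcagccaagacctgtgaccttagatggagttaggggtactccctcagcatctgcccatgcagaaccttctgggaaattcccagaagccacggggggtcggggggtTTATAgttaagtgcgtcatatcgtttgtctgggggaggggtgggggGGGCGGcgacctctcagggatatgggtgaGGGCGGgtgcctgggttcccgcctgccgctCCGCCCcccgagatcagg

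The COL4A5 window held 2 CCAAT letters, 1 on each strand, and neither other motif. The COL7A1 window held 3 GC boxes and 1 TATAA on the reverse strand. Among 35116 windows of 250 bases before RefSeq starts, 32.0% held CCAAT, 42.6% GGGCGG, and 18.9% TATAA. The GC content was 51.2% for COL4A5 and 60.8% for COL7A1, against a median of 58.0%. These letter matches describe the windows, and no binding was measured.

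COL17A1 encodes the transmembrane collagen of the hemidesmosome, which ties the basal keratinocyte to the basement membrane. Its probe (chr10:105791083-105791142, minus strand) was at 4.0, 2.71, and 2.11 after siCtrl and at 2.74, 0.97, and 1.45 after siDLEU1-2. It was lower after siDLEU1-2 in every line, and the siRNA groups overlapped across lines. The fold differences were 2.40, 3.34, and 1.58 (mean log2 fold change -1.22 ± 0.54, SD, n = 3 lines), and the limma adjusted p of 0.0524 lay just outside the threshold of 0.05. COL17A1 was called under 4 alternatives, with adjusted p from 0.0349 to 0.0495, which were median centering, normexp, detection on all arrays, and dim values raised to the floor. Under the other alternatives it was not called, with adjusted p from 0.0508 to 0.882. The other transmembrane collagen tested, COL23A1, had a mean of 0.21 (limma adjusted p = 0.43).

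The network-forming COL4A1 and COL4A2, the chains found in nearly all basement membranes, were not called after siDLEU1-2 (means 0.84 and 0.02, limma adjusted p = 0.29 and 0.957). COL4A1 in HSC-3 went from a value not well above background to -1.75, a rise of at least 3.55-fold without a replicate, and in KON and Ca9-22 it differed by 0.04 and 0.33 on the log2 scale. COL18A1, the source of endostatin, had a mean of 0.29 (limma adjusted p = 0.529).

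**Figure D3:**
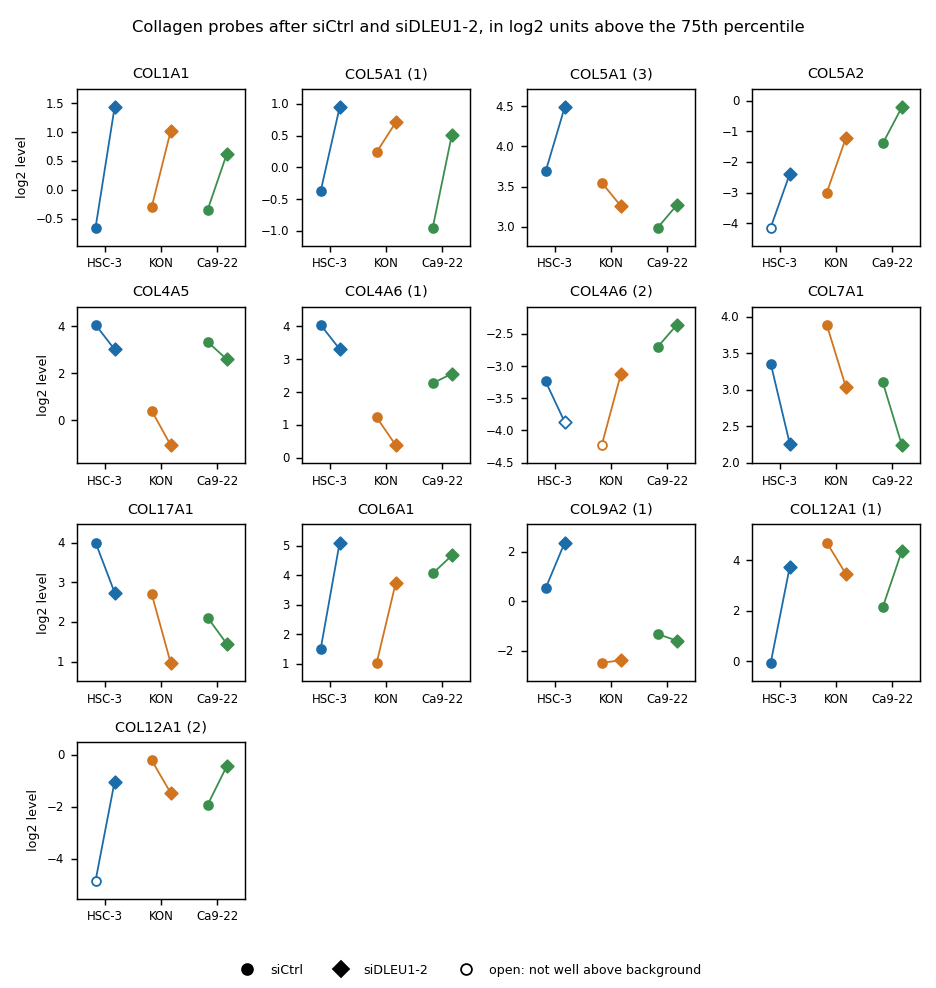
Log2 levels (vertical axis, own scale in each panel) of the 13 tested probes of 10 collagen genes after siCtrl (circles) and siDLEU1-2 (diamonds) in each cell line, 1 array per symbol. Open symbols were not well above background. COL1A1 and COL5A2 go up, COL7A1 and COL4A5 go down in each line, and both COL12A1 probes go up in HSC-3 and Ca9-22 and down in KON.

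The fold criterion used for these arrays, a change of more than 2-fold in each of the 3 lines, picked 3 collagen probes of the 26, against 4.38% of all probes tested. These were the COL5A2 probe, higher in all 3 lines (2.08% of all probes were), and both probes of COL12A1, which changed in opposite directions (0.215% of all probes did). COL12A1 encodes a collagen that binds to the surface of type I fibrils. Its first probe (chr6:75794289-75794348, minus strand) was at -0.06, 4.69, and 2.15 after siCtrl and at 3.73, 3.45, and 4.36 after siDLEU1-2. The siCtrl arrays spread over more than 4 log2 units and the siDLEU1-2 arrays over less than 1. COL12A1 was 13.8-fold higher in HSC-3 and 4.61-fold higher in Ca9-22, and 2.36-fold lower in KON. The second probe (chr6:75822928-75822987) was at -4.84, -0.21, and -1.92 after siCtrl and at -1.03, -1.47, and -0.44 after siDLEU1-2, with the same direction in each line. It rose at least 5.88-fold in HSC-3, where siCtrl was not well above background, and 2.79-fold in Ca9-22, and was 2.41-fold lower in KON. With lines moving apart, limma called neither probe (adjusted p = 0.347 and 0.415).

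Type VI collagen forms beaded filaments from the products of COL6A1, COL6A2, and a further chain such as that of COL6A3. The COL6A1 probe (chr21:47424836-47424895, plus strand) was at 1.48, 1.02, and 4.06 after siCtrl and at 5.11, 3.74, and 4.67 after siDLEU1-2. Its level was low in HSC-3 and KON after siCtrl and high on the other 4 arrays. The siDLEU1-2 level was higher by 12.4-fold (HSC-3), 6.58-fold (KON), and 1.53-fold (Ca9-22). Its mean log2 fold change was the largest among the 26 collagen probes, 2.32 ± 1.55 (SD, n = 3 lines), and did not pass the test (limma adjusted p = 0.0832). With 1 line left out, its mean was 1.67 without HSC-3 (adjusted p = 0.208), 2.12 without KON (adjusted p = 0.25), and 3.17 without Ca9-22, where it was called (adjusted p = 0.0468). Both COL6A2 probes, named here after their values were seen, were below the filter because Ca9-22 was not well above background. The first was at -3.08 and -1.65 after siCtrl in HSC-3 and KON and at -1.22 and -0.70 after siDLEU1-2, which is 3.64- and 1.93-fold higher, with no test. In HSC-3, the second was not well above background after siCtrl and at -0.84 after siDLEU1-2, at least 6.67-fold higher. In KON, the second went from -1.68 to -0.49, which is 2.29-fold higher, again with no test. COL6A3, by both of its probes, was not well above background on any array.

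COL9A2, a chain of type IX collagen, is known from cartilage. Its detected probe (chr1:40766380-40766439, minus strand) was at 0.53, -2.50, and -1.33 after siCtrl and at 2.38, -2.39, and -1.60 after siDLEU1-2. It was 3.62-fold higher in HSC-3 and differed by 1.08- and 1.21-fold in the other lines (mean 0.57 ± 1.14, limma adjusted p = 0.458). Its second probe was not well above background on any array. COL9A3, from the same collagen type, was well above background on all arrays, at 3.94, 3.29, and 4.51 after siCtrl and 4.72, 3.53, and 4.19 after siDLEU1-2 (mean 0.23, limma adjusted p = 0.573).

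The remaining other collagens gave no call. The COL16A1 probes had means of 0.48 and 0.09 (limma adjusted p = 0.143 and 0.808), and COL10A1, the short-chain collagen of growth cartilage, had a mean of 0.14 (adjusted p = 0.846) with 3 of its 6 values not well above background. COL8A2, the partner of COL8A1, was detected in HSC-3 and KON and not in Ca9-22, so that it was below the filter, and COL9A1, COL14A1, COL20A1, and COL28A1 were each well above background on some arrays and not tested for the siRNA.

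The number of collagen probes past 2-fold was counted in each line. Of the 26 probes, 13 (HSC-3), 8 (KON), and 5 (Ca9-22) passed 2-fold, against 14.2%, 14.6%, and 13.0% of all probes tested. In the upward direction there were 10, 4, and 4 collagen probes, against 7.53%, 7.30%, and 6.56% of all probes. Of the 10 upward probes in HSC-3, 5 (COL10A1, COL5A2, COL4A1, COL8A1, and the second COL12A1 probe) were not well above background after siCtrl, so that in HSC-3 they passed the filter through the array where they were high. In KON, this held for the second COL4A6 probe (at least 1.64-fold), and in HSC-3 the bound of COL10A1 was at least 1.45-fold. With dim values raised to the floor, 12, 7, and 5 collagen probes passed 2-fold, against 13.3%, 13.8%, and 12.0% of all probes, and 9, 3, and 4 did so upward, against 7.14%, 7.05%, and 6.17%. Among the 20 collagen probes well above background on all 6 arrays, 8, 5, and 2 passed 2-fold, against 11.6%, 12.2%, and 10.2% of all such probes. These counts have 1 array on each side and no test, and the difference between lines was not tested. By type, the probes past 2-fold in HSC-3 were 3 of 8 fibrillar, 3 of 7 basement membrane zone, 1 of 2 transmembrane, and 6 of 9 other collagens. The median log2 fold change over the 26 probes, with the lines in the same order, was 0.36, -0.12, and 0.22, and over all probes it was 0.00, 0.02, and -0.01.

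The cell lines themselves differed in the collagens they expressed. For this comparison, both arrays of a line were averaged, with the siRNA as a block, over 23700 probes well above background on both arrays of at least 1 line, and 35 collagen probes of 25 genes were tested. Limma called 18 collagen probes between HSC-3 and KON, 17 between HSC-3 and Ca9-22, and 16 between KON and Ca9-22, where 37.4%, 37.4%, and 35.9% of all probes were called. With 1 array left out, the counts ranged from 8 to 17, from 12 to 15, and from 5 to 17, the first and last being lowest without a KON array, and among probes detected on all arrays they were 13, 10, and 9. Only 20 collagen probes were detected on all arrays, so that the 13, 10, and 9 calls are out of 20 and not out of 35. The share of all probes called was not computed for these alternatives. In at least 1 of the 3 main comparisons, 24 of the 35 probes, from 18 genes, were called, where 60.9% of all probes were. In all 3 comparisons, 5 probes were called, where 6.87% of all probes were. The p-values rest on 2 arrays per line, which differ in siRNA, and describe these 3 lines only. The genes named below were picked after their values were seen.

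The largest differences were those of COL4A1 and COL4A2. The COL4A2 probe (chr13:111165261-111165320, plus strand) was at -1.95 and -1.48 in HSC-3 (siCtrl first), at 6.18 and 5.91 in KON, and in Ca9-22 at 5.94 and 5.80. HSC-3 was thus 216-fold below KON and 192-fold below Ca9-22 (limma adjusted p = 0.00131 and 0.00123), while KON and Ca9-22 differed by 0.17 on the log2 scale (adjusted p = 0.62). The COL4A1 probe (chr13:110802347-110802406, minus strand) was at -3.90 and -1.75 in HSC-3, where siCtrl was not well above background, at 2.84 and 2.88 in KON, and in Ca9-22 at 2.78 and 3.1. With that value raised to the lowest detected level, HSC-3 was at least 46.0-fold below KON and at least 48.8-fold below Ca9-22 (adjusted p of the fit on the measured values 0.00589 and 0.00542), and KON and Ca9-22 did not differ beyond their spread (adjusted p = 0.921). The COL4A1 probe passed the filter through KON and Ca9-22, the lines where it was high, so that its p-values against HSC-3 lend no support. For both genes, HSC-3 was the low line.

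COL4A1 and COL4A2 are transcribed away from each other from starts that lie close together, and the stretch between the starts is printed because both genes share it. RefSeq places it at chr13:110307158-110307283 (GRCh38.p14, plus strand), and its capitals mark the same 3 motifs.

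COL4A1 and COL4A2: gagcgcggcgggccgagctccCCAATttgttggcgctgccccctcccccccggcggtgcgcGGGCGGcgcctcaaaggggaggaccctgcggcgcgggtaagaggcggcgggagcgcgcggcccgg

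The stretch is 126 bases long, with 80.2% G and C, against a median of 60.3% in the 126 bases before RefSeq starts. It held 1 CCAAT and 1 GGGCGG and no TATAA, letters that 21.1%, 34.6%, and 10.6% of the windows of that length held.

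The second head-to-head pair, COL4A5 and COL4A6, ordered the lines otherwise. HSC-3 was 14.7-fold and Ca9-22 9.81-fold above KON for COL4A5 (limma adjusted p = 0.00261 and 0.003), and HSC-3 and Ca9-22 did not differ beyond their spread (adjusted p = 0.128). For the first COL4A6 probe, HSC-3 was 7.35-fold and Ca9-22 3.05-fold above KON (adjusted p = 0.00795 and 0.0283), and HSC-3 was 2.41-fold above Ca9-22 (adjusted p = 0.0484). The second COL4A6 probe, close to background, was not called in any of the 3 comparisons. KON, the line with the lowest COL4A5 and COL4A6, was thus among the lines with high COL4A1 and COL4A2.

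COL18A1 was lowest in KON. It was at 5.52 and 5.13 in HSC-3, 1.89 and 2.29 in KON, with Ca9-22 between them at 3.70 and 4.57. HSC-3 was 9.44-fold and Ca9-22 4.13-fold above KON (limma adjusted p = 0.00654 and 0.0167), and HSC-3 was not called against Ca9-22 (adjusted p = 0.0566). The transmembrane collagens COL17A1 and COL13A1 were highest in HSC-3. COL17A1 was 2.89-fold higher in HSC-3 than in KON and 3.02-fold higher than in Ca9-22 (adjusted p = 0.0241 and 0.0219). COL13A1, a transmembrane collagen of cell adhesions, was at -0.59 and 0.17 in HSC-3 and below the detection call in both other lines. HSC-3 was at least 11.1-fold higher than in KON and at least 8.91-fold higher than in Ca9-22 (adjusted p = 0.00425 and 0.00651), and it passed the filter through HSC-3 alone, the line where it was high, so that a difference was built in. Its probe has 10 spots on an array, and the SD among them was 0.04 and 0.12 on the HSC-3 arrays, which covers error within an array only.

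Of the remaining collagens, COL16A1, a minor fibril-associated collagen, was high in HSC-3 and KON. Its first probe was at 3.89 and 4.06 in HSC-3, 2.95 and 3.64 in KON, but at -1.39 and -0.81 for Ca9-22, which put HSC-3 33.8-fold and KON 21.0-fold above Ca9-22 (limma adjusted p = 0.00152 and 0.00143). The second probe, whose sequence is printed above, gave the same order with smaller differences, 4.54-fold for HSC-3 and 1.95-fold for KON (adjusted p = 0.00709 and 0.0434). COL9A2 was 14.9-fold higher in HSC-3 than in KON and 7.57-fold higher than in Ca9-22 (adjusted p = 0.0118 and 0.0221). COL8A2 was at least 7.14-fold higher in HSC-3 than in Ca9-22 by its first probe (adjusted p = 0.00234), and KON exceeded Ca9-22 at least 4.86-fold for the second COL6A2 probe (adjusted p = 0.0453). Each of these probes passed the filter through the line where it was high, HSC-3 for COL8A2 and KON for COL6A2, so that their p-values lend no support. The first COL11A2 probe, for a fibrillar chain of cartilage, was at -0.18 and -0.15 in Ca9-22, 6.39-fold above KON (adjusted p = 0.00352), and was not well above background on either HSC-3 array. COL23A1 was lowest in HSC-3, 2.22-fold below KON and 2.59-fold below Ca9-22 (adjusted p = 0.0186 and 0.0121).

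Of the 4 collagens called after siDLEU1-2, COL1A1 differed by at most 0.25 on the log2 scale between any pair of lines (adjusted p from 0.56 to 0.94), which is less than its change after siDLEU1-2. COL7A1 was called between KON and Ca9-22 alone, with KON 1.73-fold higher (adjusted p = 0.0336). COL5A2 was called in all 3 comparisons, with Ca9-22 2.48-fold above KON. HSC-3 had 1 of 2 COL5A2 values not well above background and was at least 1.84-fold below KON and at least 4.55-fold below Ca9-22. COL5A2 passed the filter through KON and Ca9-22, the lines where it was higher, so that its calls against HSC-3 lend no support.

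**Figure D4:**
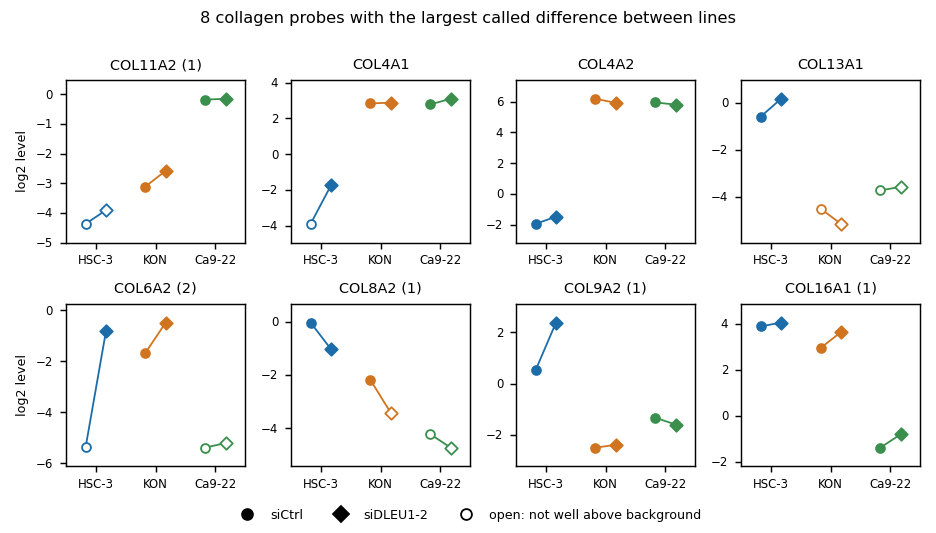
Log2 levels (vertical axis, own scale in each panel) of the 8 collagen probes with the largest called difference between lines, in each cell line after siCtrl (circles) and siDLEU1-2 (diamonds), 1 array per symbol and open where not well above background. COL4A1 and COL4A2 are low in HSC-3 alone, and COL16A1 is low in Ca9-22 alone.

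Collagen chains are hydroxylated, glycosylated, and folded in the endoplasmic reticulum, trimmed after secretion, cross-linked, and bound by receptors, and genes for these steps were examined as a list. Of 65 probes of 47 genes, 37 probes of 26 genes were tested. None was called by limma in either direction after siDLEU1-2, where 3.98% of all probes were called higher and 4.52% lower. At an unadjusted p under 0.05, 11 of the 37 passed, where 29.5% of all probes did. With normexp background correction, 2 were called, DDR1 and BMP1, with detection on all arrays PCOLCE and BMP1, and with dim values raised to the floor BMP1. Over all 19956 probes, 1131 were called higher and 1177 lower with normexp, and 934 and 1007 with dim values at the floor. With detection on all arrays, 991 and 1074 of 18094 probes were called. The median of the mean log2 fold change was 0.22 over the 37 probes, and 19 probes were higher and 5 lower in every line, against 5360 and 5334 of the 19956 probes.

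Apart from LEPREL1, the pathway genes named here were chosen after their values were seen. The prolyl 4-hydroxylases, which stabilize the triple helix, were higher in each line by all 5 probes of P4HA1, P4HA2, and P4HB, with means of 0.29 to 0.68 and none called. Of the 3-hydroxylases, LEPREL1 was more than 2-fold higher in all 3 lines. It was the only 1 of the 37 pathway probes tested to be so, where 2.08% of all probes were. It was at 3.30, 4.98, and 6.30 after siCtrl and at 6.35, 6.06, and 7.46 after siDLEU1-2, which is 8.26-, 2.12-, and 2.24-fold higher (limma adjusted p = 0.0783). The siCtrl arrays spread widely and overlapped the siDLEU1-2 arrays. Among genes of procollagen trimming, BMP1, which removes the C-terminal propeptide, was at 0.31, -0.01, and -0.74 after siCtrl and 1.36, 0.50, and 0.29 after siDLEU1-2 (adjusted p = 0.0539), and its enhancer PCOLCE was at -1.72, -2.28, and -0.66 and then -1.12, -1.74, and 0.17 (adjusted p = 0.0607). Both were higher in each line without passing the test, and were called under the alternatives named above.

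The lysyl hydroxylases PLOD1, PLOD2, and PLOD3 had means from -0.57 to 0.22. SERPINH1, the collagen chaperone HSP47, was higher in each line by 0.17 to 0.45. LOXL2, a cross-linking oxidase, was 2.38-fold higher in HSC-3 and 2.86-fold higher in Ca9-22 and 1.21-fold lower in KON. Of the receptors, DDR1, a collagen-binding kinase, was lower in each line by both probes, and ITGA2, a chain of a collagen-binding integrin, was lower in each line, by at least 1.74-fold in Ca9-22, where the siDLEU1-2 value was not well above background. None of the collagen-binding proteoglycans and fibril binders (DCN, LUM, FMOD, BGN, and SPARC) passed the filter. SPARC was well above background in HSC-3 alone, at 3.75 after siCtrl and 5.51 after siDLEU1-2, which is 3.39-fold higher, with no test. The cross-linking genes LOX, LOXL1, and LOXL4 were below the filter too, each because of a line that was not well above background.

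**Figure D5:**
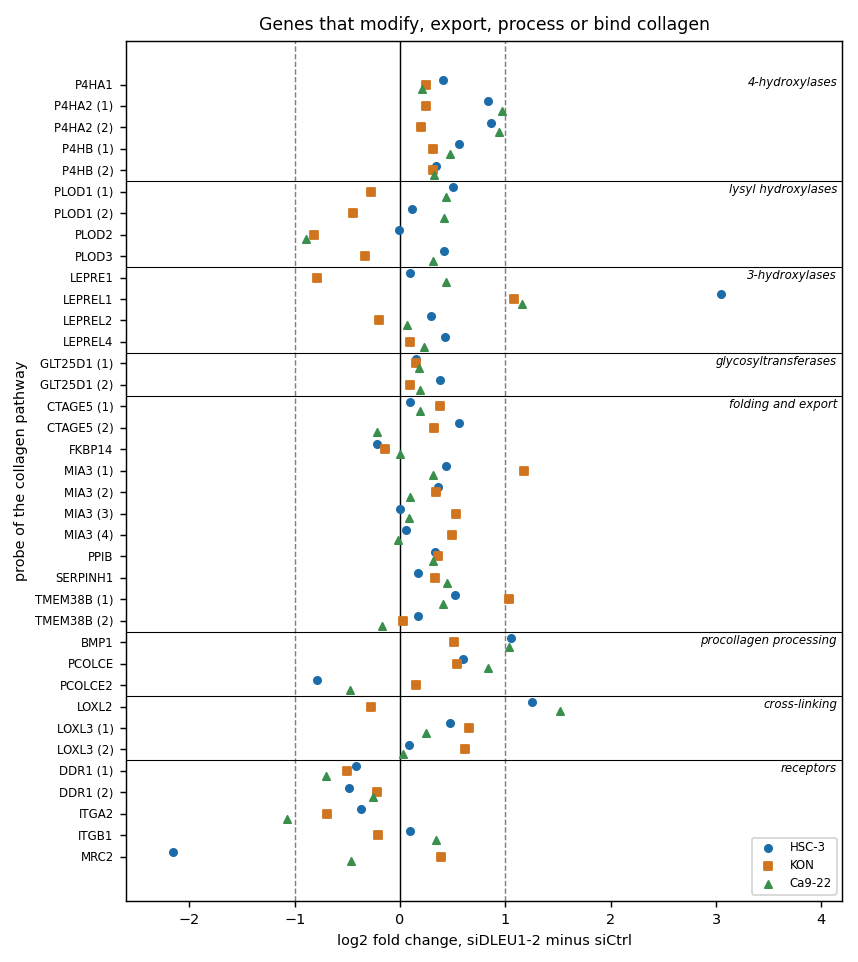
Log2 fold change (siDLEU1-2 minus siCtrl, horizontal axis) of the 37 tested probes of genes that modify, export, process, cross-link, or bind collagen, with 1 symbol per cell line and dashed lines at 2-fold. The 5 probes of the 4-hydroxylases lie right of 0 in every line, and LEPREL1 alone lies beyond 2-fold in all 3.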

How the data were processed

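Each line and siRNA has 1 one-color array. The authors deposited Agilent Feature Extraction 10.7 scanner files, in which each spot has a background-subtracted intensity that is not normalized between arrays. Their series table gives these intensity values in rounded form, within 0.497% of the scanner files. GeneSpring was used by the authors, with settings not given in the sources used here. Coordinates of probes are those of the files (hg19).

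From these, the log2 intensity minus the 75th percentile of the array was computed. Control and outlier-marked spots were left out, and spots of a probe were averaged. A probe was well above background where 50% of its spots were. There were 0 saturated spots. A level below background was replaced in folds by the higher of its value and the lowest detected level of its array, and is given as "at least". limma 3.58.1 in R 4.3.3 was fitted as ~ line + siRNA, or ~ line contrasts + siRNA, with Benjamini-Hochberg adjustment over all probes kept, at 0.05. The line is the block, since both arrays of a pair share it, and deviations from the siRNA means correlated at 0.83, 0.81, and 0.82 within the pairs. The fits were tested on simulated data. The number of arrays limits the precision, and nothing says that replicate cultures exist within a line.

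The collagen family and the gene lists were chosen with earlier results of these data known, and the rule for members used gene names and no values. The genes named are collagens past 2-fold in all 3 lines, called by limma, or detected on all arrays and past 2-fold in at least 1 line, their head-to-head type IV partners, pathway genes past 2-fold in all lines or called, and DLEU1. Others named were chosen after their values were seen. Alternatives were quantile normalization, median centering, a percentile taken over probes that every array detected, normexp (offset 50), the series table, 2 other filters, dim values at the floor, 3-fold, averaging each gene's probes, leaving out each line or the block, and the t-test of the methods. Leaving out each array from the comparison of lines was added later. Promoters and gene starts are from RefSeq tables (GRCh38.p14), where 31 of the 43 genes had a promoter entry, and the siRNA sequence is the study's.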

Additional observations from a re-analysis of the deposited data

Results flagged for a closer look

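For 3 of the 26 collagen probes tested, the response to siDLEU1-2 passed 2-fold upward in 1 line and downward in another. With a single array for each line and siRNA, that difference was not tested. The share of all probes with such a response was not counted, so that nothing particular to collagens is read from it. The log2 fold changes of COL12A1 in HSC-3, KON, and Ca9-22 were 3.79, -1.24, and 2.20 by its first probe, a range of 5.03, and 3.81, -1.27, and 1.48 by its second, a range of 5.08. The HSC-3 value of the second probe after siCtrl was not well above background, and with it raised to the lowest detected level the range was at least 3.82. COL8A1, a network-forming collagen of endothelium and vessel walls named here after its values were seen, was at -3.75, 2.04, and -1.38 after siCtrl and at 0.85, 1.97, and -5.24 after siDLEU1-2. Its log2 fold changes were 4.60, -0.08, and -3.87, a range of 8.47 on the measured values. The siCtrl value in HSC-3 and the siDLEU1-2 value in Ca9-22 were not well above background, so that COL8A1 was higher after siDLEU1-2 by at least 21.6-fold (HSC-3) and lower by at least 3.76-fold (Ca9-22), a range of at least 6.34 on the log2 scale.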

How the results depend on the processing

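The direction of the DLEU1 change and of the COL1A1, COL5A2, COL4A5, and COL7A1 changes was the same under every alternative that gave a value. The DLEU1 mean was -2.69 with normexp. DLEU1 was not called with no filter on dim probes (-3.72, adjusted p = 0.141) or with no block for the cell line (-3.72, adjusted p = 0.183), and with 1 line left out its mean ranged from -3.87 to -3.54, not called without HSC-3 or KON. The collagen probes called were 0 higher and 0 lower with no filter, with no block, and by the methods' t-test after Benjamini-Hochberg adjustment (at an unadjusted p under 0.05, that test had 2 higher, COL1A1 and COL5A1, and 0 lower). With 1 line left out, 0 to 1 were called higher (COL6A1, without Ca9-22) and 0 lower, and over all probes none was called with no filter, with no block, or without HSC-3 or KON. The collagen probes past 2-fold in all lines were 1 with normexp, 1 with detection on all arrays, 0 at 3-fold, and 3 to 7 with a line left out. Over all probes, 399 of 19956 were past 2-fold with normexp and 585 of 18094 with detection on all arrays, against 874 of 19956 in the main setting. With a line left out, only the remaining lines had to pass, and 1307 to 1377 of 19956 did. The pathway probes called were 2 with normexp (DDR1 and BMP1), PCOLCE and BMP1 with detection on all arrays, and BMP1 with dim values at the floor. The counts over all probes under these alternatives are given with the pathway genes above. Between lines, 20 collagen probes were detected on all arrays. Of these, 13 were called between HSC-3 and KON, 10 between HSC-3 and Ca9-22, and 9 between Ca9-22 and KON. With 1 array left out, the calls ranged from 8 to 17 (HSC-3 against KON, lowest without either KON array and 11 without either HSC-3 array), from 12 to 15 (HSC-3 against Ca9-22), and from 5 to 17 (KON against Ca9-22, lowest without either KON array and 7 or 8 without a Ca9-22 array), an alternative chosen after seeing the data. Signs turned without 1 line for the third COL5A1 probe (range 0 to 0.54, lowest without HSC-3), COL9A2 (range -0.08 to 0.99, lowest without HSC-3), and the second COL4A6 probe (range -0.15 to 0.72, lowest without KON). The cause of these changes was not tested. Of the 65 collagen probes, 22 were well above background on no array, and a change in these was not detectable at this signal.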
